A study of Mus musculus with 3 samples.

Results

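Interferon-high capillary endothelial cells (ECs) of the mouse lung were the 1371 droplet barcodes with the highest share of 6 interferon-stimulated transcripts among 27412 capillary EC barcodes. A barcode had to hold 1000 to 5000 genes and under 20% mitochondrial UMIs, limits that left 31947 barcodes in the 3 libraries. Each captured RNA molecule carries its own random tag, the UMI, and UMIs rather than reads were counted. The capillary gate then asked for at least 2 UMIs of the EC genes Pecam1 and Cdh5 together and at least 3 UMIs of Gpihbp1, Kit, Plvap and Aplnr together. Each gated barcode was scored by its UMIs of Ifit1, Ifit2, Ifit3, Isg15, Rsad2 and Usp18 per 10000 UMIs, and the top 5% over the pooled libraries were taken. They are called interferon-high barcodes here, and the remaining 26041 gated barcodes are called other capillary barcodes. The choice therefore rests on measured values of those 6 genes, and the levels of those genes describe the choice rather than support it.

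The lungs came from wild-type C57BL/6 mice. The control mice received PBS through the tail vein and were taken after 6 h. The other mice received 200000 B16-F10 cells, a mouse skin melanoma line labelled with CellTracker Green, and were taken after 6 h or 30 h. Cells that stained for Pecam1 and not for the leukocyte antigen Ptprc were sorted after a collagenase digestion at 37 °C, and dye-labelled melanoma cells were added to the 6 h library per its label. There was 1 library per group, made from pooled lungs of 2 mice per the labels, so no difference between libraries has a replicate and none was tested. No PBS library was taken at 30 h, so in that library melanoma cannot be told apart from time after injection. Melanoma cells delivered into a vein model their arrest in lung capillaries, not their spread from a tumour.

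Type I interferons bind the receptor pair Ifnar1 and Ifnar2, which activates the kinases Jak1 and Tyk2. Among their targets is Stat2, which joins Irf9 in the complex ISGF3. ISGF3 binds a promoter element built of paired GAAA blocks and turns on a set of antiviral genes that includes all 6 genes of the score. Interferon-γ acts through another receptor pair and is known for inducing guanylate-binding proteins, immunity-related GTPases and antigen presentation genes. In the lung, general capillary ECs (gCap) line alveolar capillaries together with aerocytes (aCap), which are specialised for gas exchange.

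The paired GAAA blocks can be read in the promoters of the genes that carry the score and of genes that were higher with it. The 10 stretches that follow are shown because they hold the letters GAAA, any 2 letters and GAAA, searched on both strands within 250 bases before and 50 bases after the start of the gene, and because the genes stand for the groups described later. Capitals mark the matches, overlapping matches run together, and TTTC, any 2 letters and TTTC is the same motif on the other strand. All are from RefSeq on GRCm38.p6, are written 5′ to 3′ on the strand of the gene, and overlap no annotated exon.
Ifit1, chr19:34640765-34640833, plus strand: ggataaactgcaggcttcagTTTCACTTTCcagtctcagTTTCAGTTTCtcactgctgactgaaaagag
Ifit3, chr19:34583353-34583436, plus strand: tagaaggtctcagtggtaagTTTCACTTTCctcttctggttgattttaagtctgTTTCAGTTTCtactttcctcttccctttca
Isg15, chr4:156200855-156200916, minus strand: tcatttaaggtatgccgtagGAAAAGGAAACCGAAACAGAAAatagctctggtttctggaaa
Rsad2, chr12:26456543-26456592, minus strand: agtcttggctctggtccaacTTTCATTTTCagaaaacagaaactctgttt
Oas1a, chr5:120907526-120907565, minus strand: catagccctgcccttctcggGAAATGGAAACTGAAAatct
Igtp, chr11:58199502-58199551, plus strand: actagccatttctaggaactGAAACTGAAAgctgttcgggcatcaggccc
Irgm2, chr11:58214893-58214942, plus strand: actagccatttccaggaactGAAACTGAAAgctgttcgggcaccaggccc
Gbp5, chr3:142496749-142496798, plus strand: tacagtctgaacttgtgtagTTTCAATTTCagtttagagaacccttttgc
Cxcl10, chr5:92349073-92349122, minus strand: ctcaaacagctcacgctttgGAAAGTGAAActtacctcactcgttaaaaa
B2m, chr2:122147528-122147577, plus strand: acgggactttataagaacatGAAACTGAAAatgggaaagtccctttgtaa

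In Ifit1 the matches began 104 and 85 bases before the start of the gene, and in Isg15 3 overlapping matches began between 78 and 66 bases before it. Among the 6 genes of the score, 5 had a promoter in the table and 4 of these held the motif; Ifit2 held none, and Usp18 had no entry. The same letters were found in 3.92% of all 20242 promoters. A match is a run of letters and is not evidence that a factor was bound.

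The 6 genes of the score were read first, as a description of what was chosen. Levels are given as CPM, the UMIs of a gene per 1000000 UMIs summed over the barcodes of a group in a library, and always in the order control, 6 h and 30 h. Isg15, a ubiquitin-like protein that is joined to other proteins, stood at 982, 1295 and 1079.8 CPM in the interferon-high barcodes and at 78.8, 112 and 84.3 CPM in the other capillary barcodes. Ifit1, which binds viral RNA lacking host cap methylation, stood at 944, 858 and 635 CPM against 54.3, 49.7 and 33.8 CPM. Ifit3 stood at 606, 527 and 472 CPM against 32.4, 29.4 and 24.7 CPM. For each of these genes the lowest library of the interferon-high barcodes lay above the highest library of the other barcodes.

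Usp18, which removes Isg15 from proteins and dampens receptor signalling, stood at 232, 227 and 199.7 CPM against 27.5, 26.1 and 23.6 CPM. Rsad2 (viperin), an enzyme that makes a chain-terminating nucleotide, stood at 179.9, 159 and 226 CPM against 12.3, 8.22 and 8.81 CPM. Ifit2, which restrains translation, stood at 41.7, 53.7 and 71.6 CPM against 5.82, 5.17 and 9.09 CPM. In the interferon-high barcodes Ifit2 was highest and Ifit1 lowest in the 30 h library, so the 6 genes did not order the libraries in the same way.

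Isg15 was detected in 97.8% of interferon-high barcodes and 36.4% of the others, Ifit1 in 93.1% and 19.3%, and Rsad2 in 44.1% and 5.73%. All 6 genes were detected together in 10.8% of interferon-high barcodes, 5 genes in 33.0%, 4 in 33.5%, 3 in 16.6%, 2 in 5.25% and only 1 in 0.875%. The median interferon-high barcode held 20 UMIs of the 6 genes (range 3 to 284), and the median of the others held 1, with 43.3% of them at 0. Barcodes with under 100 UMIs, which hold free RNA rather than cells, gave 345.3, 404.6 and 274.7 CPM for the 6 genes summed. The other capillary barcodes gave 211, 230 and 184 CPM, below those empty droplets in each library, and the interferon-high barcodes gave 2986, 3121 and 2683 CPM. The high level of the last 3 values follows from the choice of barcodes on these genes. The same choice took the highest barcodes out of the other capillary barcodes and so lowered their level. All gated barcodes together gave 345.1, 410.9 and 261.1 CPM, close to the empty droplets. Leukocyte markers summed to 91.6 CPM in the other capillary barcodes of the control against 803 CPM in its empty droplets, and epithelial markers to 684 against 9346 CPM, so the 6 genes lay nearer to the level of empty droplets than these markers did. The sort and the gate had selected against cells that carry such markers, which limits this comparison. The part of free RNA in the level of the other barcodes was not tested.

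The limit fell at 16.7 UMIs of the 6 genes per 10000. The barcode just inside it held 11 such UMIs of 6599 and the barcode just outside held 21 of 12602, both in the 6 h library, so the limit cuts a continuous range. The median score was 25.3 in the interferon-high barcodes, with a maximum of 249, against 0.968 in the others. The share of gated barcodes past the limit was 5.06% in the control (509 of 10053, exact Clopper-Pearson 95% interval 4.64 to 5.51%), 6.51% at 6 h (615 of 9445, 6.02 to 7.03%) and 3.12% at 30 h (247 of 7914, 2.75 to 3.53%). The intervals do not overlap, but they cover counting error only and say nothing of the spread between mice. Relative to the control the share was 1.29 times as high at 6 h (95% interval 1.14 to 1.45) and 0.616 times at 30 h (95% interval 0.527 to 0.719).

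The whole distribution was shifted in the same order. The median score of all gated barcodes was 1.06, 1.25 and 0.912 per 10000 UMIs in the control, 6 h and 30 h libraries, the 95th percentile was 16.8, 20.5 and 12.0, and the 99th percentile was 37.5, 44.1 and 27.9. The summed CPM of the 6 genes in empty droplets had the same order, highest at 6 h and lowest at 30 h, and its part in the shares was not tested. When each barcode was thinned to 2000 UMIs, which left out 124, 123 and 51 shallower barcodes, the share with at least 5 UMIs of the 6 genes was 3.45%, 4.72% and 2.15%. The order of the libraries was the same at equal depth.

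**Figure D1:**
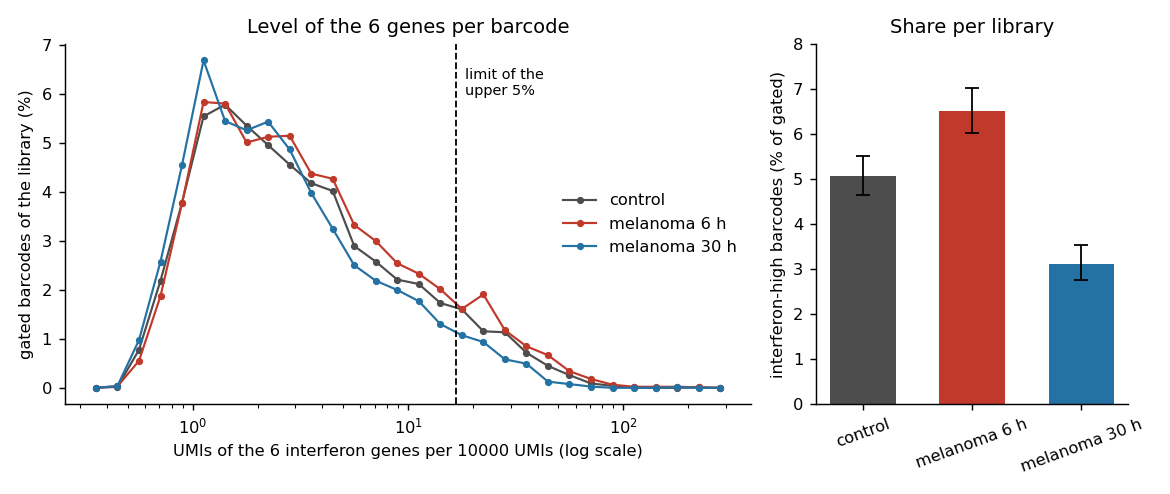
Left, percent of gated barcodes of each library by UMIs of the 6 genes per 10000 UMIs (log axis; barcodes at 0 cannot be drawn on it), with the limit as a dashed line. Right, share of gated barcodes past the limit, with exact Clopper-Pearson 95% intervals: 5.06% in the control, 6.51% at 6 h and 3.12% at 30 h.

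The labelled cell type was then checked against capillary and other EC genes. The interferon-high barcodes held the markers of gCap at or slightly above the level of the other barcodes, and lower levels of aCap markers. Gpihbp1, which anchors lipoprotein lipase to capillaries, stood at 1515, 1249 and 1136 CPM against 1317, 1100.4 and 1065 CPM and was detected in 98.2% of interferon-high barcodes. Of 12 gCap markers, 5 were higher (Gpihbp1, Plvap, Cd93, Lpl and Tmem100, log2 differences 0.10 to 0.25) and Sema3c was lower (log2 difference -0.12). Gpihbp1 and Plvap belong to the gate that both groups passed.

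Of 12 aCap markers, 11 were lower (1 without the library term), with a median log2 difference of −0.89. Ednrb, the endothelin B receptor, stood at 44.2, 40.5 and 79 CPM against 146, 95.3 and 152 CPM (log2 difference -1.27 ± 0.09, adjusted p = 1.88e-09). Fibin stood at 40.5, 20.8 and 40.2 CPM against 129, 68.9 and 93.7 CPM (log2 difference -1.53 ± 0.08, adjusted p = 8.58e-12), and Apln, the ligand of the gCap receptor Aplnr, at 5.28, 9.48 and 23.1 CPM against 19.4, 22.5 and 45.3 CPM (log2 difference -1.24 ± 0.14, adjusted p = 2.31e-06). Ednrb and Fibin did not overlap between the groups over the libraries, and Apln did. When barcodes with at least 2 UMIs of 12 genes of other EC types were left out of both groups, 2 of the 12 aCap markers were lower, and Ednrb and Fibin turned to log2 differences of 0.21 and 0.13. The 12 genes include Ednrb, Apln, Fibin and Tbx2 themselves. Such barcodes made up 24.7% of interferon-high barcodes and 31.7% of the others.

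Of 10 general EC genes 1 was higher and 2 were lower. Pecam1 and Cdh5 did not pass the test (log2 differences -0.02 and -0.02), Flt1 was slightly higher (0.15), Emcn slightly lower (-0.18), and Kdr, the main VEGF receptor, was lower at 256, 301 and 399.9 CPM against 372, 389 and 522 CPM (log2 difference -0.38 ± 0.04, adjusted p = 4.25e-06). Of 9 vein markers Prss23 and Ptgs1 were higher (log2 0.32 and 0.37) and Mctp1 lower (-0.27). Of 11 artery markers Bmx, Mgp and Cdh13 were lower (log2 differences -0.58, -0.73 and -1.10), and of 8 lymphatic markers Lyve1, which gCap also express, was higher (0.32) while Mmrn1, Reln and Pdpn were lower, with 46.9% of the Mmrn1 UMIs and 76.5% of the Reln UMIs of the interferon-high barcodes in 1 barcode each. The barcodes thus carried the labelled capillary genes, with lower levels of aCap genes than the barcodes they were compared with.

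RNA of other cell types was measured in both groups. Summed over the 18 leukocyte markers, the interferon-high barcodes gave 62.1, 68.0 and 367 CPM against 91.6, 115 and 72.6 CPM, and empty droplets gave 803, 1406 and 1364 CPM. Lyz2 was lower (log2 difference -0.68) and none of the 16 leukocyte markers tested was higher. Ptprc was at 0, 1.21 and 8.32 CPM, and Itgam and Ms4a1 were at 0 in all interferon-high sums. In the 30 h interferon-high sum, S100a8 and S100a9 stood at 148 and 136 CPM. Of these UMIs, 1 barcode held 320 of 321 for S100a8 and 1 held 294 of 295 for S100a9. For Hbb-bs, 1 barcode held 6735 of 6851 UMIs there, and whether these were the same barcode was not recorded. The part of leukocyte RNA in the differences was not tested beyond leaving out barcodes with leukocyte RNA, which is given with the limits.

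Of 11 epithelial markers, the surfactant genes Sftpc, Sftpb and Sftpa1 were lower (log2 differences -1.15, -1.34 and -0.94), as were Acta2 and Tagln of 12 mesenchymal markers (Acta2 at 1, 3.83 and 3.7 CPM against 2.44, 8.45 and 6.13 CPM, Tagln -0.69). The surfactant genes turned sign without barcodes with leukocyte RNA (0.15, 0.16 and 0.40 for Sftpc, Sftpb and Sftpa1), and these and Acta2 did so without barcodes of other EC types (0.26, 0.04, 0.19 and 0.07), none past the threshold. No platelet, red cell or melanoma marker passed the test in either direction. The interferon-high barcodes had a median of 7846 UMIs and 3151 genes against 8211 UMIs and 3233 genes, 2.40% against 2.56% mitochondrial UMIs, and 4.08% against 9.88% likely doublets. No interferon-high barcode sequence was shared between libraries, and 32, 29 and 15 gated barcode sequences were shared by pairs of libraries.

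All remaining differences between interferon-high and other capillary barcodes were tested on UMIs summed per library, which gave 3 sums a group, with the library as a block in edgeR and p-values adjusted over 15225 genes. The members were chosen on 6 genes read in the same cells, so a gene that varies with those 6 from cell to cell was chosen with them. The adjusted p measures how even a difference was over 3 libraries that also carry 3 treatments, and is not independent evidence that the genes belong together. Overlap between the groups over the libraries, where named, describes the sums of that gene only. The share of all tested genes without overlap was not counted. At an adjusted p of 0.05, 436 genes (2.86% of those tested) were higher and 297 (1.95%) were lower in the interferon-high barcodes. The log2 difference was over 1 for 136 of the higher genes, and 84 of these stood in the interferon lists used here. The sign was the same in all 3 libraries for 420 of the higher and 291 of the lower genes. Without the 6 h library, which has the most interferon-high barcodes, 220 genes were higher and 78 lower.

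The ligands of the pathway were not seen. None of 20 type I, II and III interferon genes had a UMI in an interferon-high barcode of any library, and summed over the other capillary barcodes they reached 0.051, 0.0673 and 0.0293 CPM. Ifnb1 was at 0 of 509, 0 of 615 and 0 of 247 interferon-high barcodes, which allows a share of up to 0.722%, 0.598% and 1.48% (exact Clopper-Pearson 95% limits of barcodes with a UMI).

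The receptors differed little between the groups. Ifnar1 stood at 54.5, 54.9 and 50.4 CPM against 58.3, 55.5 and 52.2 CPM (log2 difference -0.01 ± 0.06, adjusted p = 0.996). Ifnar2 stood at 220.1, 203 and 214 CPM against 199.9, 195 and 189.6 CPM and was just past the threshold (log2 difference 0.17 ± 0.05, adjusted p = 0.0475). The interferon-γ receptor chains Ifngr1 and Ifngr2 and the shared chain Il10rb did not pass, with log2 differences of 0.10, 0.07 and 0.00. Of 5 receptor genes tested, 1 was higher, and their median of 0.07 lay near the median of −0.01 over all genes tested.

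Within the signalling chain the kinases and the factors parted. Jak1 stood at 282, 339.9 and 245 CPM against 269, 338 and 251 CPM (log2 difference 0.06 ± 0.05, adjusted p = 0.671), and the log2 differences of Tyk2 and Jak2 were 0.01 and 0.15, none past the threshold. Stat2 stood at 265, 259 and 191 CPM against 94, 107 and 63.2 CPM, 2.81-fold higher (log2 difference 1.49 ± 0.06, adjusted p = 6.53e-14). Irf9 stood at 152, 163 and 157 CPM against 65.2, 74.7 and 67.7 CPM, 2.34-fold higher (log2 difference 1.23 ± 0.05, adjusted p = 1.38e-13). Stat2 and Irf9 were thus both higher, with no overlap between the groups over the libraries, while the receptor and kinase transcripts were close to equal.

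Of 7 interferon regulatory factors tested, Irf7, Irf1 and Irf2 were higher. Irf7, which amplifies interferon production, stood at 109.5, 119 and 111 CPM against 17.1, 17.3 and 19.3 CPM, 6.62-fold higher (log2 difference 2.73 ± 0.07, adjusted p = 9.77e-17), and was detected in 52.7% of interferon-high barcodes and 12.5% of the others. Irf1 stood at 481, 573 and 253 CPM against 337, 419 and 231 CPM (log2 difference 0.42 ± 0.06, adjusted p = 3.27e-05), with overlap between the groups since both were low at 30 h. Irf3, which acts upstream of interferon production and is regulated by phosphorylation, stood at 43.7, 48.4 and 33.7 CPM against 45.8, 50.2 and 44 CPM and did not pass the test (log2 -0.07). Irf8 and Irf5 were at low levels and did not pass.

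Of 10 nucleic acid sensors tested, 6 were higher and none lower, with a median log2 difference of 1.05. The RNA sensors Ddx58 (RIG-I), Ifih1 (MDA5) and Dhx58 (LGP2) were all higher: Ddx58 stood at 169, 175 and 160.4 CPM against 61.5, 73.3 and 59.95 CPM (log2 difference 1.42 ± 0.05, adjusted p = 3.64e-14). Zbp1, a sensor of left-handed nucleic acid, stood at 50.8, 69.6 and 64.7 CPM against 7.26, 14 and 10.4 CPM (log2 difference 2.60 ± 0.10, adjusted p = 8.44e-14). Ifi204, a DNA sensor of a family of close copies, had a log2 difference of 2.77 and Tlr3, an endosomal sensor of double-stranded RNA, of 0.67. The adaptors that pass the signal on were not higher: Mavs stood at 14.3, 11.3 and 13.9 CPM against 14.1, 13.9 and 12.4 CPM (log2 -0.03) and Tmem173 (STING) at 0.503, 11.7 and 3.24 CPM against 2.82, 8.67 and 3.19 CPM (-0.01). Cgas and Aim2 did not pass either (log2 0.39 and 0.59). Dhx58 shares its locus with the antisense gene Dhx58os, and reads of the pair may be split between them.

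The antiviral effectors were the largest group. Of 72 tested besides the genes of the score, 65 were higher and none lower, with a median log2 difference of 1.43. Oas1c, Ifitm1, Ifi27, Uba7, Slfn1, Slfn8 and Ms4a4c did not pass. Oasl2, an antiviral ubiquitin-like protein, stood at 536, 507 and 453 CPM against 90.1, 94.1 and 76.1 CPM, 5.94-fold higher (log2 difference 2.57 ± 0.05, adjusted p = 2.66e-18). Oasl1, which restrains translation of Irf7 mRNA, stood at 53.3, 45.2 and 43.5 CPM against 3.02, 3.34 and 2.3 CPM, 16.9-fold higher (log2 difference 4.07 ± 0.14, adjusted p = 2.71e-14). Both were higher in each interferon-high sum than in any sum of the other barcodes.

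Among the remaining effectors, Eif2ak2 (PKR), a kinase that halts translation on double-stranded RNA, was 4.01-fold higher at 211, 201 and 190.4 CPM against 52.8, 53.3 and 49 CPM. Rtp4 was 4.38-fold higher at 453, 439 and 389.7 CPM against 104, 109 and 89.1 CPM. Cmpk2, a neighbour of Rsad2 that makes its nucleotide substrate, was 6.45-fold higher at 201, 170.5 and 171 CPM against 32.5, 28.9 and 25.1 CPM, and Ifi44 was 8.13-fold higher at 213, 219.9 and 212 CPM against 22.8, 27.3 and 33.6 CPM. The groups did not overlap for these 4 genes. Adar, which edits double-stranded RNA, and Bst2, which tethers budding virus, had log2 differences of 1.28 and 0.83. Ifitm3, which blocks virus entry, stood at 2982, 3612 and 3844 CPM against 1745, 2248 and 2359 CPM (log2 difference 0.77 ± 0.02, adjusted p = 3.07e-16) and did not overlap between the groups. Its neighbour Ifitm2 differed by only 0.15.

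The 15 largest rises by log2 difference, chosen by a fixed rule that left out the 6 genes of the score, were Ifit1bl1 (4.53), Oasl1, Ifit3b (3.99), Phf11a (3.87), Gm5431 (3.27), Oas1g (3.09), Apol9a (3.09), Ifi44, Ifi206 (2.91), Apol9b (2.85), Oas1a (2.83), Ifi211 (2.81), Ifi204, Gm13822 (2.73) and Irf7. The value of Ifit1bl1 rests on few cells, since 50.9% of its UMIs in interferon-high barcodes came from 1 barcode. Those of Phf11a, Ifi211 and Gm13822 rest on few UMIs, at 22, 32 and 35 over all interferon-high barcodes. Gm13822 had 3 of them at 30 h. The size and rank of these rises are therefore uncertain. Ifit3b is a near copy of Ifit3, Oas1g of Oas1a and Apol9b of Apol9a, and the counting could split reads within each pair. The stretch around the motif matches of Ifit3b was identical to the one printed for Ifit3. Of the 14 of these genes with a promoter in the table, 9 held the paired GAAA motif.

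Counted over all genes, the motif stood in 22.5% of the promoters of the higher genes (76 of 338), in 45.6% of those over a log2 difference of 1 (47 of 103) and in 3.69% of those of the lower genes (8 of 217). The share over all tested genes with a promoter was 3.77% (421 of 11183). It stood in 29 of 60 antiviral effectors, in 9 of 10 GTPases and in 5 of 16 MHC class I genes. The counts of the GTPases rest on few promoters.

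**Figure D2:**
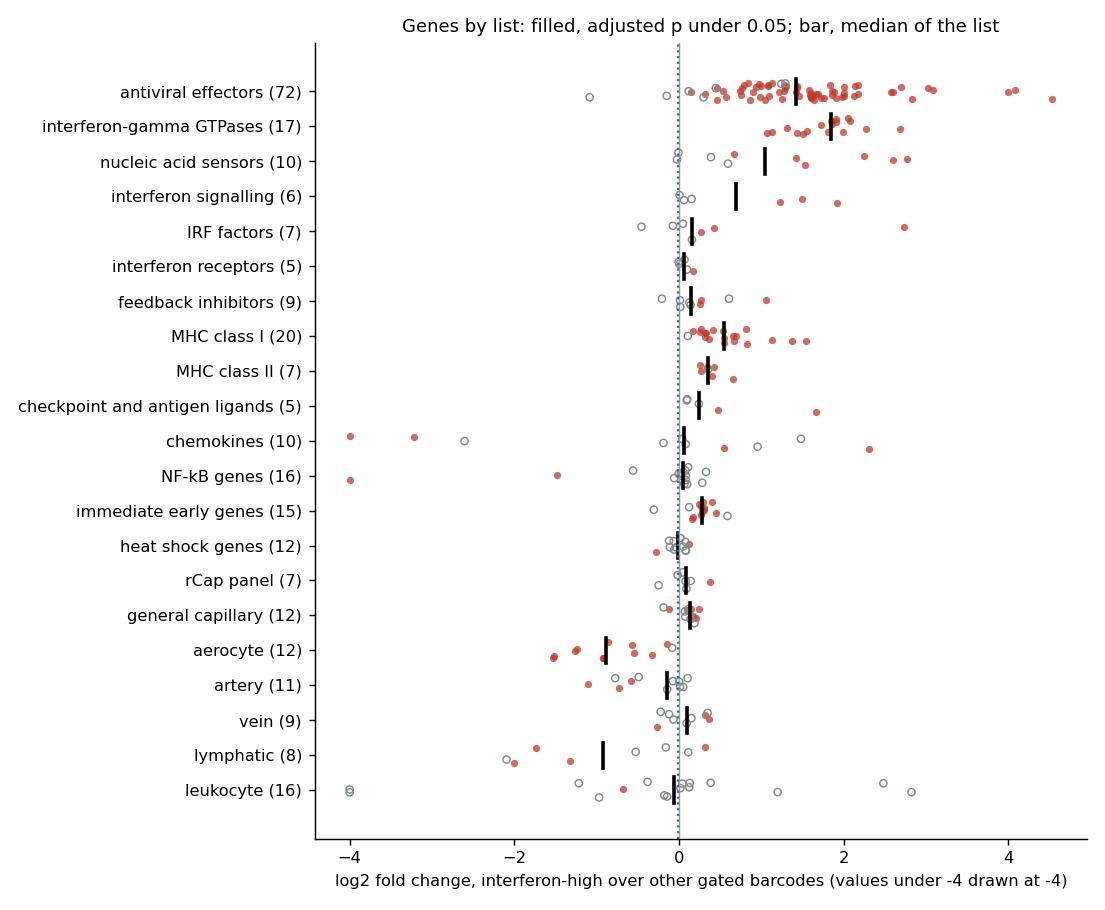
Log2 difference between interferon-high and other gated barcodes (edgeR, library as a block) for each tested gene of the lists, 1 point per gene, filled where the adjusted p is under 0.05, with the list median as a black bar and the median of all genes tested as a dotted line; values under −4 are drawn at −4. Antiviral effectors and GTPases lie around medians of 1.43 and 1.85, MHC class I genes around 0.54, and NF-κB and heat shock genes around 0.05 and −0.01.

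The guanylate-binding proteins and immunity-related GTPases, textbook targets of interferon-γ that attack the vacuoles of intracellular pathogens, were higher as a whole: 17 of 17 tested were higher, with a median log2 difference of 1.85 and a range of 1.07 to 2.68. Iigp1 stood at 1102, 1218 and 695 CPM against 295, 343 and 159 CPM (log2 difference 2.00 ± 0.04, adjusted p = 2.99e-17). Igtp stood at 198, 233 and 153 CPM against 47.9, 64.5 and 31.9 CPM (log2 difference 2.07 ± 0.06, adjusted p = 1.07e-15) and Gbp5 at 97.5, 129 and 64.3 CPM against 22.7, 34.4 and 15.2 CPM (log2 difference 2.06 ± 0.06, adjusted p = 4.17e-15). Gbp2 stood at 240.4, 369 and 196 CPM against 81.1, 140.0 and 89.2 CPM (log2 difference 1.43 ± 0.06, adjusted p = 1.37e-12). These 4 genes were lowest at 30 h in the interferon-high barcodes and did not overlap with the other barcodes. Tgtp1 and Tgtp2 are near copies and their separate values are uncertain. Irgm2, whose promoter is printed with that of Igtp, was 2.95-fold higher.

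Antigen presentation by MHC class I was higher by a smaller amount: 19 of 20 genes were higher, with a median log2 difference of 0.54, and Erap1 did not pass. Without the library term 2 of them were higher. The heavy chain H2-K1 stood at 2054, 2545 and 1824 CPM against 1725, 2156 and 1610.0 CPM (log2 difference 0.27 ± 0.02, adjusted p = 4.63e-08) and its light chain B2m at 2451, 2625 and 2482 CPM against 2140.0, 2240.3 and 2146 CPM (log2 difference 0.26 ± 0.02, adjusted p = 7.80e-09). H2-K1 overlapped between the groups over the libraries and B2m did not. The peptide transporter Tap1 stood at 152, 179.8 and 113 CPM against 73.3, 86.6 and 49.9 CPM (log2 difference 1.13 ± 0.05, adjusted p = 7.46e-13), and the immunoproteasome subunit Psmb8 had a log2 difference of 0.81. Nlrc5, the factor that drives MHC class I transcription, stood at 77.1, 98.2 and 67 CPM against 26.9, 38.7 and 20 CPM (log2 difference 1.54 ± 0.07, adjusted p = 2.53e-12). The log2 differences of Nlrc5 and Tap1 were larger than those of the chains, a contrast that was not tested.

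Of 7 MHC class II genes, 6 were higher and H2-DMa did not pass (median log2 0.35). Cd74, the invariant chain, stood at 259.8, 351 and 153 CPM against 235, 279 and 142 CPM (log2 difference 0.25 ± 0.05, adjusted p = 0.00503), and Ciita, the class II master factor, at 15.6, 27 and 19.9 CPM against 10.01, 18.9 and 12 CPM (log2 difference 0.65 ± 0.11, adjusted p = 8.45e-04). Summed over the list, empty droplets gave 660.3, 774 and 775 CPM, as much as the 655, 812 and 651 CPM of the interferon-high barcodes, and the part of free RNA in these values was not tested.

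Among ligands that act on immune cells, Cd274 (PD-L1), which restrains T cells, stood at 48, 77.1 and 52.7 CPM against 18, 24.1 and 15.3 CPM, 3.17-fold higher (log2 difference 1.66 ± 0.08, adjusted p = 8.58e-12). Tnfsf10 (TRAIL), which triggers death receptors, stood at 418, 519 and 428 CPM against 306, 393 and 317 CPM (log2 difference 0.47 ± 0.04, adjusted p = 4.73e-08). Fas, Cd47 and Cd40 did not pass. Cd274 was higher in every interferon-high sum than in any sum of the others, and highest at 6 h.

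Of 10 chemokine and growth factor genes, Cxcl10 and Csf1 were higher and Cxcl1 and Ccl5 lower. The lower values rest on few barcodes: 1 of the other barcodes held 229 of 288 Ccl5 UMIs at 6 h and 1 held 60 of 186 in the control. A Ccl5 UMI was found in 0.1965%, 0.163% and 0.405% of interferon-high barcodes, 1 barcode in each library. Among the others the shares were 0.566%, 0.430% and 0.470%. Cxcl1 turned to a log2 difference of 0.31 for the top 10% of barcodes and 0.36 when they were chosen on a random split of the UMIs. Cxcl10, which draws Cxcr3-bearing lymphocytes, stood at 14.1, 71.2 and 19.9 CPM against 6.61, 7.51 and 7.2 CPM (log2 difference 2.30 ± 0.27, adjusted p = 4.58e-06), and empty droplets at 2.86, 18.9 and 7.17 CPM. It was carried by few cells: 9 of 509, 29 of 615 and 3 of 247 interferon-high barcodes had a UMI (1.77%, 4.72% and 1.22%), against 0.765%, 1.96% and 0.339% of the others. In the 6 h library 1 barcode held 103 of the 353 UMIs. Csf1, a macrophage growth factor, stood at 123, 129 and 81.4 CPM against 86, 109.7 and 41.5 CPM (log2 difference 0.54 ± 0.08, adjusted p = 1.17e-04). Cxcl9 did not pass, with 47.6% of its interferon-high UMIs in 1 barcode, and neither did Ccl2.

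Of 9 feedback inhibitors, Socs1, Socs2 and Socs3 were higher. Socs1, which blocks the Jak kinases, stood at 31.2, 45.6 and 17.1 CPM against 13.9, 22.9 and 10.4 CPM (log2 difference 1.06 ± 0.10, adjusted p = 3.51e-07). Socs3 had a log2 difference of 0.27 and Socs2 of 0.25. The phosphatases Ptpn1 and Ptpn2 and Pias1 did not pass (log2 0.02, 0.14 and 0.01). Usp18, a further inhibitor of the receptor, belongs to the score.

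Inflammatory genes outside the interferon response did not follow it as a group. Of 16 NF-κB target genes none was higher, and the median log2 difference was 0.05. Nfkbia stood at 480.1, 610.3 and 453 CPM against 469, 569 and 468 CPM (log2 difference 0.08 ± 0.04, adjusted p = 0.446), Icam1 had a log2 difference of 0.06 and Vcam1 of 0.33. The 2 genes that were lower were the selectins. Selp stood at 6.28, 8.47 and 3.24 CPM against 14.5, 30.7 and 5.08 CPM (log2 difference -1.49 ± 0.17, adjusted p = 5.59e-06). The share of barcodes with a Selp UMI was alike in both groups, at 1.97%, 2.44% and 1.62% against 1.96%, 2.90% and 1.62%, and single barcodes of the others held up to 131 UMIs. Sele, which slows leukocytes on activated vessels, had no UMI in any interferon-high barcode and 0.523, 7.27 and 0.63 CPM in the others. In the other capillary barcodes Sele UMIs stood in 8 of 9544, 87 of 8830 and 11 of 7667 barcodes, and 0 interferon-high barcodes allow a share of up to 0.722%, 0.598% and 1.48%. Only at 6 h was this limit below the share in the others, 0.985%.

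**Figure D3:**
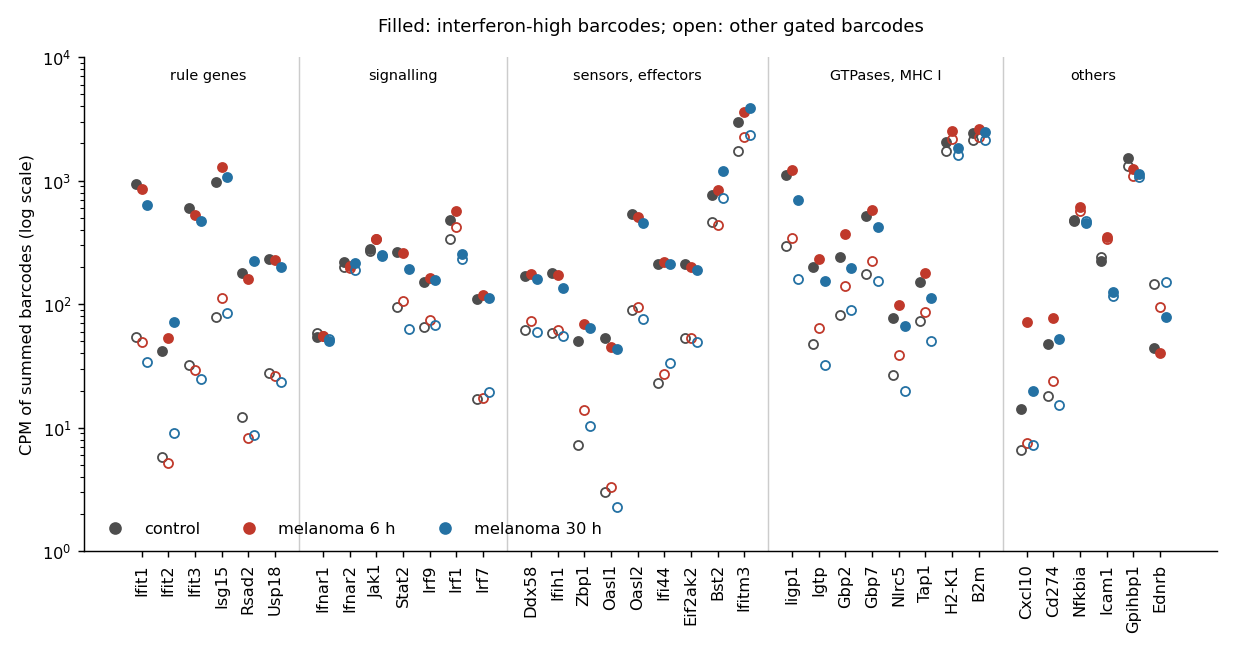
Level in CPM (log axis) of named genes in interferon-high barcodes (filled) and other gated barcodes (open), 1 point per library (black control, red 6 h, blue 30 h), grouped by role. Filled points lie above open ones for the score genes, Stat2, Irf9, effectors and GTPases, while Ifnar1, Jak1, Nfkbia and Icam1 nearly coincide and Ednrb lies lower in the interferon-high barcodes, at 44.2, 40.5 and 79 CPM.

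Of 15 immediate early genes 12 were higher, each by a small amount, with a median log2 difference of 0.27. Fos stood at 1981, 2986 and 995 CPM against 1575, 2417 and 936 CPM (log2 difference 0.29 ± 0.04, adjusted p = 8.33e-06) and Atf3 at 282, 773 and 118 CPM against 180.2, 567 and 135 CPM (log2 difference 0.39 ± 0.09, adjusted p = 0.0103). At 30 h Atf3 was lower in the interferon-high barcodes, and the groups overlapped over the libraries for both genes. None of the 12 passed without the 6 h library or without the library term. Of 12 heat shock genes Hspa8 was higher (log2 0.12) and Hspb1 lower (-0.28, but 0.13 without barcodes of other EC types), with a median of −0.01.

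The panel of 7 genes that marks reactive capillary cells (rCap) in this study was chosen on these samples. Tmem252 was higher, at 119, 241 and 141 CPM against 95.5, 175 and 126 CPM (log2 difference 0.38 ± 0.06, adjusted p = 1.78e-04), and the others did not pass, Pim3 at 125, 166 and 74.4 CPM against 108, 159 and 90.01 CPM (log2 0.09). UMIs of Pim3, Bcl3 and Tmem252 together were found in 5.50%, 11.5% and 2.02% of interferon-high barcodes and in 4.07%, 12.0% and 4.995% of the others. Csf2 and Inhbb were found together in 0, 2 and 0 interferon-high barcodes (0.325% at 6 h, exact Clopper-Pearson 95% interval 0.0394 to 1.17%) and in 0, 50 and 1 of the others (0.566% at 6 h, 0.421 to 0.746%). Barcodes with the 3 rCap genes were more frequent at 6 h than in the other libraries in both groups. No cell cycle gene passed. The 45 genes tested of the study's own markers of its high-interferon cluster (hIFN), also chosen on these samples, were all higher, with a median log2 difference of 1.85.

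Of the 15 largest falls, 5 genes had no UMI in the interferon-high barcodes. These were Sele, Nts, Gm2682, Cacna1e and Cxcl1, and since their UMIs in the other barcodes stood in few cells no fold is given. The share of the other barcodes with a UMI was at most 0.168% for Nts, 0.313% for Gm2682, 0.470% for Cacna1e and 0.498% for Cxcl1, which for these 4 genes lay below the limit that 0 interferon-high barcodes allow in each library (0.598% to 1.48%). The others rest on few UMIs as well, so no fold is given: over all libraries the interferon-high barcodes held 1 UMI of 1700120C14Rik and Gm525 each, 2 of B3galt1 and Kcnn3, 3 of Ccl5, Tekt5 and Pde1a, 4 of Sema3d, 5 of Stab2 and 9 of Fxyd6, and the other capillary barcodes, of which there were 26041, between 260 (Gm525) and 982 (Fxyd6). Of the 297 lower genes 28, against 2 of the 436 higher genes, had over 20% of their interferon-high UMIs in 1 barcode.

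The summed antiviral effectors, the summed GTPases and Irf7 were higher at each higher bin of the score in all 3 libraries, and not only past the limit. In the control, the antiviral effectors summed to 7996 CPM in barcodes with a score of 0, 9366 CPM at a score over 2 and up to 5, 13640 CPM from 10 to the limit, 16221 CPM from the limit to 30 and 21678 CPM over 30. The GTPases went from 871 to 1257, 2382, 3242 and 4973 CPM over the same bins, and Irf7 from 10.2 to 21.8, 50.7, 90.1 and 145 CPM. The summed MHC class I genes and nucleic acid sensors and the genes Oasl2, Bst2 and Iigp1 were also higher at each higher bin in all 3 libraries, MHC class I from 8761 to 11936 CPM and Bst2 from 429 to 889.8 CPM in the control. Cxcl10, the MHC class II genes and Irf1 were not: in the control Cxcl10 stood at 11.2, 2.44 and 40.1 CPM at a score over 0 to 2, over 2 to 5 and from 10 to the limit and at 15.5 CPM over 30, the MHC class II genes lay between 535 and 572 CPM up to the limit, and Irf1 at 30 h stood at 275 CPM from 10 to the limit and 253.7 CPM over 30. The rCap panel went from 530.1 to 549.9, 545, 582 and 609 CPM in those bins, and in the 30 h library it ended at 457 CPM over a score of 30. The 6 h and 30 h libraries gave 22154 and 23218 CPM of antiviral effectors over a score of 30. The bins hold between 184 and 4209 control barcodes, and bins of a library share its free RNA and differ in depth.

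**Figure D4:**
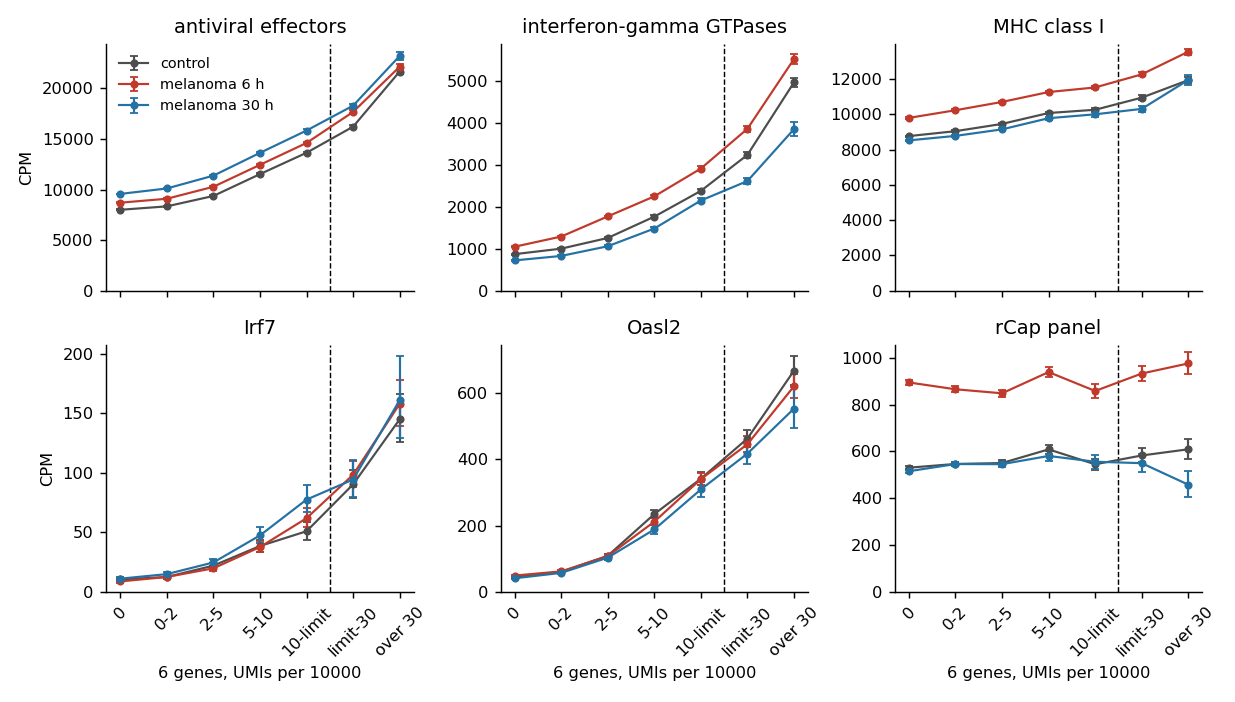
Summed level in CPM of 4 gene lists and of Irf7 and Oasl2 in bins of the score from 0 to over 30 per 10000 UMIs, 1 line per library, with exact Poisson 95% intervals and the limit as a dashed line. Antiviral effectors and GTPases climb across all bins, to 21678 and 4973 CPM in the control, while the rCap panel stays between 530.1 and 609 CPM there.

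Single interferon-high barcodes varied widely. The antiviral effectors without the score had medians of 176, 187 and 193 UMIs per 10000 in interferon-high barcodes and 84.9, 93.5 and 102 in the others, and the GTPases medians of 31.4, 35.7 and 23.7 against 7.87, 10.3 and 6.90. In the control the middle 80% of interferon-high barcodes ran from 122 to 243 for the effectors, and from 14.9 to 67.8 for the GTPases, where the lowest barcode had none. Across interferon-high barcodes of a library, Spearman's ρ with the score was 0.56, 0.49 and 0.43 for the effectors, 0.39, 0.34 and 0.35 for the GTPases, 0.17, 0.20 and 0.23 for MHC class I and 0.09, 0.06 and 0.05 for MHC class II. These describe cells of 509, 615 and 247 barcodes that share a library, and a sparse count lowers them.

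Interferon-high barcodes neighboured each other mainly where genes of the interferon lists were counted. In a space of 30 components from 2000 variable genes, of which 42 stood in the interferon lists, 51.6% of the 15 nearest neighbours of an interferon-high barcode were interferon-high, against 1.36% for the other barcodes. With the genes of the interferon lists left out of the variable genes this was 7.24% against 4.80%. Outside these lists stood 312 of the 436 higher genes, so genes that vary with the score could remain among the variable genes. The first value uses genes that vary with the score, so it describes the choice. The second varied by library, at 7.22%, 8.51% and 4.13% against 4.85%, 6.12% and 3.22%, and most neighbours came from the same library.

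Barcodes outside the capillary gate were scored in the same way. Past the limit were 45 of 3680 EC barcodes that failed the capillary gate (1.22%, exact Clopper-Pearson 95% interval 0.893 to 1.63%) and 25 of 855 barcodes under the EC minimum (2.92%, 1.90 to 4.29%). None of 19 barcodes with melanoma genes was past it, which allows a share of up to 17.65%. The limit was set on the gated barcodes, so these shares are compared with the 5% that it fixes only as a description.

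The last question was whether interferon-high barcodes differed between treatments in ways the other barcodes did not. Both melanoma libraries are set against the same control library, so the values at 6 h and 30 h are not independent of each other. That control was taken at 6 h, so the 30 h library also differs from it in time after injection. Log2 ratios are of CPM with 1 CPM added, over the 6778 genes whose mean reached 20 CPM, and have no test. At 6 h, 24 genes (0.354%) were over a log2 ratio of 1 in the interferon-high barcodes and 17 (0.251%) under −1, against 17 and 7 (0.251% and 0.103%) in the others. At 30 h the counts were 74 (1.09%) and 96 (1.42%) against 40 and 54 (0.59% and 0.797%). The interferon-high sums come from fewer barcodes, so the larger counts are not read as larger responses. Genes named by rule below were picked on their ratio in the interferon-high barcodes. A less extreme ratio in the others can follow from that choice and is not read as a difference between the groups.

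Between libraries, the interferon lists moved by differing amounts in the interferon-high barcodes. The 63 antiviral effectors had median log2 ratios of 0.02 at 6 h and −0.12 at 30 h, against 0.08 and −0.07 in the other barcodes and −0.01 and −0.07 over all genes. Of the effectors 35 were positive at 6 h and 26 at 30 h, against 44 and 30 in the others. Over all 6778 genes 3324 and 2814 were positive in the interferon-high barcodes and 3216 and 2614 in the others. In the interferon-high barcodes the share of effectors that were positive thus lay near that of all genes. In the others it lay above that of all genes, more so at 6 h. The limit on the score was the same for all libraries, and the effectors and GTPases vary with the score. The choice therefore bears on their level in the interferon-high barcodes of each library. The contrast between the groups for these lists is not read as a difference in response. The 15 GTPases had 0.15 and −0.32 against 0.39 and −0.19, with 15 positive in both groups at 6 h, and 4 and 6 at 30 h. The 7 feedback inhibitors had 0.36 and −0.71 against 0.31 and −0.39, with 0 positive at 30 h in the interferon-high barcodes. MHC class I genes had 0.22 and −0.01 against 0.24 and 0.01. Single genes had larger ratios at 30 h, chosen after their values were seen: Irf1 had −0.92 (−1.06 to −0.79) in the interferon-high barcodes and −0.54 in the others, Iigp1 −0.66 and −0.89, Bst2 0.64 and 0.66, and Gbp9 0.70 and 0.72. The intervals given for log2 ratios are exact conditional binomial 95% intervals, cover counting error only, and do not replace a test.

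Of the interferon genes whose mean reached 20 CPM, Cxcl10 had the largest ratio at 6 h, and it reached that mean through its 6 h value. Cxcl9, below the minimum, went from 1 UMI in the control to 79 UMIs in 3 barcodes at 6 h. Cxcl10 had a log2 ratio of 2.26 at 6 h (1.93 to 2.77) in the interferon-high barcodes and 0.16 in the others, and 2.25 without the highest interferon-high barcode of each library. The ratio rests on 9 control and 29 6 h barcodes. The value in the others rests on few barcodes too, since 1 control barcode held 222 of 518 UMIs there, against at most 48 of 558 at 6 h. The share of barcodes with a UMI was higher at 6 h in both groups, at 4.72% against 1.77% in the control among interferon-high barcodes and 1.96% against 0.765% among the others, so the share does not show the gap between groups that the CPM does. Among the others named by rule at 6 h, Hspa1b (2.65 against 2.66), Hspa1a (2.17 against 2.40), Hsph1 (2.12 against 2.07), Atf3 (1.45 against 1.65) and Disp2 (1.44 against 1.68) had like ratios in both groups. Hspa1a and Hspa1b are near copies. Fabp4 (2.84 against 0.46) and S100a8 (2.08 against 0.47) did not, but the ratio of Fabp4 was 1.40 without its highest barcode and S100a8 had no UMI in the control interferon-high sum.

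Of the 8 largest falls at 6 h, Tnik (−1.60 against −1.36), Fam107a (−1.34 against −1.31) and Gm15478 (−1.27 against −1.20) were alike in both groups. Chn2 (−1.28 against −0.55), Adgrg6 (−1.21 against −0.46), Cobll1 (−1.21 against −0.64) and D830026I12Rik (−1.21 against −0.58) had lower ratios in the interferon-high barcodes, at levels between 11.1 and 51.8 CPM there. Scgb1a1, a secretory epithelial gene, had −2.61 against −0.18. It was detected in 80.0%, 34.0% and 30.0% of interferon-high barcodes and in 75.3%, 33.8% and 30.1% of the others, so the share of barcodes with a UMI was lower by a like amount in both groups while the CPM ratio differed. At 6 h the 5 highest of the other barcodes held 15453 of the 20143 Scgb1a1 UMIs of that group, and 1 held 7299. Among interferon-high barcodes at 6 h the highest held 6 of 293. The 6 h ratio in the others thus rests on few barcodes.

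At 30 h, Cdk8 (2.71 against 2.55) and Cmss1 (2.58 against 2.61) had like positive ratios in both groups, and Serpina3g (−1.91 against −1.88), Ucp2 (−1.83 against −1.79) and Scgb1a1 (−2.88 against −2.66) had like negative ones. Ptgs1 had −2.12 against −1.71, with counting intervals of −2.44 to −1.86 and −1.78 to −1.68 that did not overlap, but like all genes named by rule here it was picked on the first ratio. Serpina3f (−2.21 against −1.42), Fam107a (−2.02 against −1.26) and Cdc14b (−1.93 against −1.13) had lower ratios in the interferon-high barcodes, where each was at or under 12 CPM at 30 h. The other 7 genes named by rule moved the most without single barcodes. Without the highest barcode of each gene in each group, S100a8 went from 7.22 to 0.57, S100a9 from 6.51 to 0.24, Fabp4 from 3.53 to 1.25, Hbb-bs from 2.30 to −3.28, Hbb-bt from 2.29 to −2.88, Hba-a1 from 2.17 to −2.48 and Ccl21a from −2.004 to −0.60.

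**Figure D5:**
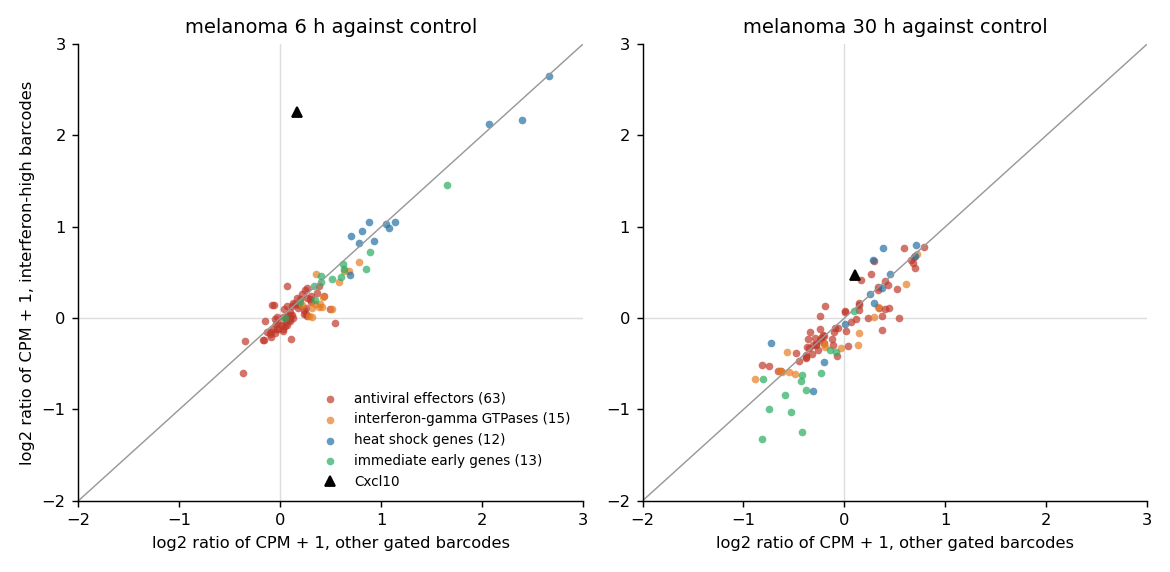
Log2 ratio of CPM + 1 against the control library at 6 h (left) and 30 h (right), in interferon-high barcodes (vertical axis) and other gated barcodes (horizontal axis), 1 point per gene of 4 lists and Cxcl10 (triangle), with the line of equal ratios. Most genes lie near the line, and Cxcl10 at 6 h lies above it, at 2.26 against 0.16, the latter with 222 of 518 control UMIs in 1 barcode.

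Heat shock genes had median log2 ratios of 1.00 at 6 h in the interferon-high barcodes and 0.99 in the others, and 0.29 in both at 30 h. The rCap panel had 0.63 against 0.66 at 6 h and −0.29 against −0.13 at 30 h. Immediate early genes had 0.45 against 0.52 at 6 h and −0.69 against −0.42 at 30 h. The 9 vein markers were further apart, at −0.70 against −0.40 at 6 h and −0.49 against −0.16 at 30 h. The 5 platelet markers had −0.25 against 0.19 at 6 h and 0.01 against 0.04 at 30 h. Leukocyte, epithelial, mesenchymal and red cell markers had 1 to 4 genes at the minimum, S100a8 and S100a9 among them each through 1 barcode at 30 h, and their medians are not compared.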

How the data were processed

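The deposited matrices hold raw UMI counts, genes by barcodes, with 140601123, 132566934 and 124085451 UMIs in the control, 6 h and 30 h matrices over 32285 features. The file headers and the submitters' processing notes name Cell Ranger 7.2.0, and the notes name Seurat 4.4.0 and the build mm10. Empty droplets were listed, so barcodes were filtered with the study's limits on genes and mitochondrial UMIs. Whether intronic reads were counted is not given in the sources used here, and it changes the level of long genes. The labels give 2 mice per treatment, the study's methods 3 pooled mice for such an experiment.

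Counts were summed per library and group and fitted in edgeR 4.0.16 (R 4.3.3) by the quasi-likelihood test, with filterByExpr (minimum count 10, total 15) and Benjamini-Hochberg adjustment over 15225 genes; the 6 genes of the score got no p. DESeq2 1.42.0 was an alternative. Log2 differences are those reported by edgeR. The value after ± is an approximate standard error, the size of the log2 difference divided by the square root of its F statistic. Levels have exact Poisson intervals in the tables and cover counting error only. Doublets were called with Scrublet in scanpy 1.11.5 and kept in the main comparison. Neighbours were found with scikit-learn 1.9.0. Scripts were tested on simulated data. Groups of mice come from the treatment in the labels.

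The members, gene lists and tests were chosen with earlier results of these data known. The genes named were the 15 largest changes in each direction with 1 sign in 3 of 3 libraries, up to 10 genes of a list by level or role, and the 8 largest ratios in each direction between libraries. Mx1, Mx2, Oas1b, Gbp11 and Cxcl11 were not analysed here, and some further genes are not reported here. Promoters are from RefSeq on GRCm38.p6, and 99.6% of features were found in the GENCODE annotation of GRCm38. Alternatives changed the share taken, depth, doublets, leukocyte and other EC barcodes, the filter, the test, the library term and the libraries used.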

Additional observations from a re-analysis of the deposited data

Results flagged for a closer look

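The share of interferon-high barcodes was 1.45 percentage points higher at 6 h than in the control and −1.94 points from it at 30 h. The 2 times moved in opposite directions from a shared control library, and the difference was not tested since each group is 1 library.

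The 6 genes of the score summed to 404.6 CPM in empty droplets of the 6 h library and 345.3 CPM in those of the control. Among barcodes under the EC minimum, 3.48% were past the limit at 6 h (12 of 345, exact Clopper-Pearson 95% interval 1.81 to 5.997%) and 2.91% in the control (8 of 275, 1.26 to 5.65%). Both were picked out because they lie outside the gated barcodes and were higher than in the control, but the intervals of the shares overlap almost wholly. EC barcodes that failed the capillary gate went the other way, with 0.879% past the limit at 6 h and 1.36% in the control.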

How the results depend on the processing

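The count of higher genes (436) moved by over 1.5 times without the library term, to 126, all of them among the 436. It did so too without the 6 h library, to 220. Within 1.5 times lay 593 without the 30 h library and 398 without the control. Leaving out a library left 2 libraries in each group. The count of lower genes (297) went to 185 when barcodes were chosen on a random split of the UMIs, 100 with the other barcodes in the depth band of the interferon-high ones, 74 without barcodes of other EC types, 147 with the DESeq2 Wald test, 499 without a filter, 9 without the library term and 78 to 424 leaving out a library (78 without 6 h, 239 without the control). The share of calls that were higher was 59.5%, and 78.5%, 81.8%, 70.8%, 45.8%, 93.3% and 73.8% with the depth band, without other EC types, with DESeq2, without a filter, without the library term and without the 6 h library. Without other EC barcodes 316 of the 333 higher genes and 43 of the 74 lower ones were shared with the main comparison. Choosing barcodes on a random split of the UMIs and reading the others gave 341 shared of 369 higher genes. Without the library term 2 MHC class I genes, 0 immediate early genes and 1 aCap gene were called, without other EC types 2 aCap genes, and the immediate early count ranged from 0 to 13 leaving out a library. The cause was not tested. The 30 h share ratio of 0.616 was 0.458 for the top 2%. Between libraries, the counts past a log2 ratio of 1 were, for the top 2%, 43 and 35 at 6 h and 131 and 218 at 30 h, higher and lower. At a minimum of 50 CPM they were 10, 4, 35 and 49. The lower count was 11 at 6 h with a pseudocount of 5 CPM and 59 at 30 h for the top 10%. Signs turned for Cxcl1 (0.31 for the top 10%, 0.36 on a random split of the UMIs), and without other EC barcodes for Hspb1 (0.13), Car4 (0.0311), Ednrb (0.21), Tbx2 (0.18), Fibin (0.13), Rprml (0.45), Cyp4b1 (0.072), Acta2 (0.071), Sftpc (0.26), Sftpb (0.03763) and Sftpa1 (0.19). Without barcodes with leukocyte RNA they turned for Sftpc (0.15), Sftpb (0.16) and Sftpa1 (0.40), and in the depth band for Sftpc (0.0451) and Sftpa1 (0.11). Leaving out other EC types and leaving out the highest barcode were chosen after seeing the data.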

Other observations

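Outside the interferon lists, 312 genes were higher in interferon-high barcodes, and some of these stood in the other gene lists. Some with known antiviral or immune roles are given here, chosen after their values were seen. Slfn3 stood at 40.7, 40.8 and 43.9 CPM against 9.22, 9.04 and 10.7 CPM in the other capillary barcodes (edgeR log2 difference 2.17 ± 0.10, adjusted p = 1.42e-12). Parp11, an ADP-ribosyltransferase, stood at 70.1, 60.7 and 63.8 CPM against 16, 19.6 and 16 CPM (log2 difference 1.95 ± 0.09, adjusted p = 3.04e-12), and Samd9l, a restriction factor of poxviruses, at 162, 166 and 166 CPM against 61.5, 66.5 and 59.2 CPM (log2 difference 1.44 ± 0.05, adjusted p = 1.63e-14). All 3 were higher in 3 of 3 libraries. Mov10 and Zc3hav1, which act on viral RNA, had log2 differences of 1.13 and 1.09, and Trafd1 of 1.32.

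Some further genes, picked in the same way, follow. Ido1, which degrades tryptophan, had a log2 difference of 1.51, Gch1, which starts tetrahydrobiopterin synthesis, of 0.90, and Nampt, an enzyme of NAD salvage, of 0.85. Mlkl, the executor of necroptosis, had 0.70 and Casp4, an inflammatory caspase, 0.68. Pim1, a kinase of the same family as Pim3, stood at 142, 188 and 64.7 CPM against 91.9, 117 and 44.8 CPM (log2 difference 0.69 ± 0.05, adjusted p = 5.90e-09), while Pim3 did not pass the test. The difference between the 2 kinases was not tested.

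Among lower genes outside the lists, Rgs6 and Tmeff2 had log2 differences of -1.69 and -1.61. These 2 genes were not followed through the alternatives, where the count of lower genes went from 297 to 74 without barcodes of other EC types and to 9 without the library term.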
